A study of Mus musculus with 27 samples.

Results

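Skeletal muscle of *Mlx*KO mice was compared between 20 and 5 months of age, with 5 mice at 20 months and 4 at 5 months. These 9 samples were chosen by the tissue and age in their labels, out of 27 samples of which 9 came from liver and 9 from adipose tissue. All mice of both ages carried floxed *Mlx* alleles and a Cre recombinase fused to a modified estrogen receptor. The Cre allele was Gt(ROSA)26Sortm1(cre/ERT2)Tyj, on a B6.129 background, crossed to Mlx Flox/Flox. All had been given tamoxifen around weaning, at 75 mg/kg in corn oil in 5 daily intraperitoneal injections. The Cre is driven from the ROSA26 locus, which is active in nearly every cell type, so that the deletion was not restricted to muscle fibers. The study used male mice for its RNA sequencing, and each sample is 1 mouse. Since both ages carried the deletion and the tamoxifen treatment, and WT muscle was not analysed here, the comparison describes age within the *Mlx*KO genotype and says nothing of the effect of the deletion. The labels give the older age as 20 months, whereas the library codes of those samples carry the number 18. The paper's list of excision efficiencies gives 18 months for older muscle samples whose mouse numbers end as these codes do. Which muscle was sampled is not stated in the labels.

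Skeletal muscle consists of long, multinucleated fibers packed with sarcomeres, the contractile units in which myosin pulls on actin. Fast and slow fibers use different myosin heavy chains and calcium pumps, and lean to different degrees on glycolysis and on mitochondrial fuel oxidation. Fibers are kept in step with their motor nerve through the neuromuscular junction, where acetylcholine receptors are clustered by the receptor kinase MuSK, and denervated fibers switch on a known set of genes that includes ubiquitin ligases of the atrophy program. Muscle also responds within hours to heat, injury, fasting and glucocorticoids by raising chaperones, metallothioneins and immediate early genes. *Mlx* is the obligate partner of MondoA (gene symbol *Mlxip*) and ChREBP (*Mlxipl*), transcription factors that respond to glucose, and MondoA is the main one of them in muscle.

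The muscle samples held 14384695 to 17961438 reads on genes, of which 26.2 to 29.2% fell on the 20 most abundant genes. Values are given as deposited, as CPM divided by a scaling factor for each sample, and are called scaled CPM here. In these samples, 3 reads correspond to 0.196 to 0.242 scaled CPM. Mice are named by their library codes. Where values are listed for each mouse, the order is mouse X5S4299, X5S5001, X5S5238 and X5S5239 at 5 months and mouse X18S56, X18S57, X18S58, X18S59 and X18S60 at 20 months. Log2 changes are 20 minus 5 months on the scale log2(scaled CPM + 1), which understates changes of genes with low values, and come from limma with adjustment over all genes tested. A gene is said to have risen or fallen where its adjusted p was under 0.05. Of 12720 genes tested, 19.3% passed this threshold, 9.13% by rising and 10.1% by falling with age, and for 17.3% the mice of the 2 ages did not overlap. The counts of list members given below are to be read beside these shares. The number of genes depended on single mice, with 1158 when mouse X18S60 was left out and 3796 when mouse X5S5238 was left out, against 2451 with all 9. It also moved by more than 1.5 times without mouse X18S57 (1552), mouse X18S58 (1352) or mouse X5S5001 (1518). Several samples stood apart within their age. Mouse X5S5001 had the highest value of many stress genes among the young mice, mouse X18S56 had the highest value of many stress and Z-disc genes among the old, and mouse X5S4299 had the highest slow myosin.

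Markers of muscle fibers were abundant in every sample, where the labels give skeletal muscle. The 10 fiber markers summed to 210848 to 236569 scaled CPM at 5 months and 189531 to 227514 at 20 months. Of them 1, *Mb*, rose and 0 fell. Markers of T and NK cells summed to at most 1.63 scaled CPM in any sample. Markers of hepatocytes were present at 66.2 to 431 scaled CPM at 5 months and 1.85 to 82.7 at 20 months, and albumin (*Alb*) was at 0.999, 24.9, 222 and 27.5 scaled CPM at 5 months and 0.522, 0.199, 43.1, 1.84 and 0 at 20 months. Albumin was therefore highest in mouse X5S5238 among the young and in mouse X18S58 among the old, and the 2 ages overlapped.

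*Mlx* itself was examined first. It was at 9.91, 9.11, 11.6 and 7.04 scaled CPM at 5 months and 11.3, 9.17, 10.6, 10 and 10.3 at 20 months (log2 change 0.13 ± 0.14 (SE), adjusted p = 0.503), which did not pass the threshold. Reads on all exons count toward this value, including those outside the deleted segment, so it does not report on the extent of the deletion. By qRT-PCR, the paper found *Mlx* transcript left in skeletal muscle of younger and older mice, at a larger share of WT than in liver. That share differed between mice. In the paper's list the lowest muscle value came from a younger mouse and the highest from an older one, and the ages overlapped. Whether the remaining transcript bears on the age changes was not tested. Among 14 tested members of a list of *Mlx* partners, related factors and known target genes, 5 fell and 1 rose, where 10.1% and 9.13% of all genes did, with a median log2 change of -0.37 against 0.02 over all genes. *Mnt*, a repressor that pairs with *Mlx* or *Max*, fell from a range of 30.8 to 44.5 to one of 18.5 to 26.7 scaled CPM (log2 change -0.78 ± 0.13 (SE), adjusted p = 0.00436). *Mga*, a large *Max*-binding repressor, was the member that rose, from a range of 40.1 to 57.1 to one of 67.4 to 88.1 scaled CPM (log2 change 0.65 ± 0.12 (SE), adjusted p = 0.00531). *Txnip*, the standard MondoA target that restrains glucose uptake, fell by 0.44 on the log2 scale (adjusted p = 0.00871). The falls of *Mlxip*, *Max* and *Mxd1* depended on single mice, with log2 changes of -0.54, -0.44 and -0.59. *Mlxip* kept its call without mouse X18S58, X5S5238 or X5S5239 and lost it without any other mouse (log2 changes of -0.56 to -0.40). *Max* kept its call without mouse X18S56, X5S5238 or X5S5239 and lost it without any other mouse (log2 changes of -0.45 to -0.34). *Mxd1* did not pass the threshold without mouse X18S56, X18S57, X18S58, X5S4299 or X5S5001 (log2 changes of -0.58 to -0.50). *Mlxipl* had a log2 change of 0.41 that missed the threshold (adjusted p = 0.123). The number of members that fell was 2 without mouse X18S57 or X5S4299, 3 without mouse X18S56, X18S58, X18S59 or X18S60, and 4 or 5 without any other mouse.

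Sets of genes for the contractile, neuromuscular, metabolic and stress programs are set side by side in the plot of gene lists. Cell type markers apart, the lists that held the largest share of falling members were those of glucocorticoid and starvation responsive genes (19 of 22), fibrillar and basement membrane matrix (28 of 42), metallothioneins and zinc handling (4 of 7) and immediate early genes (11 of 23). These shares stand against 10.1% over all genes tested. Among the lists that held rising and no falling members were those of respiratory chain subunits, ribosomal proteins of both compartments and interferon-stimulated genes.

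**Figure D1:**
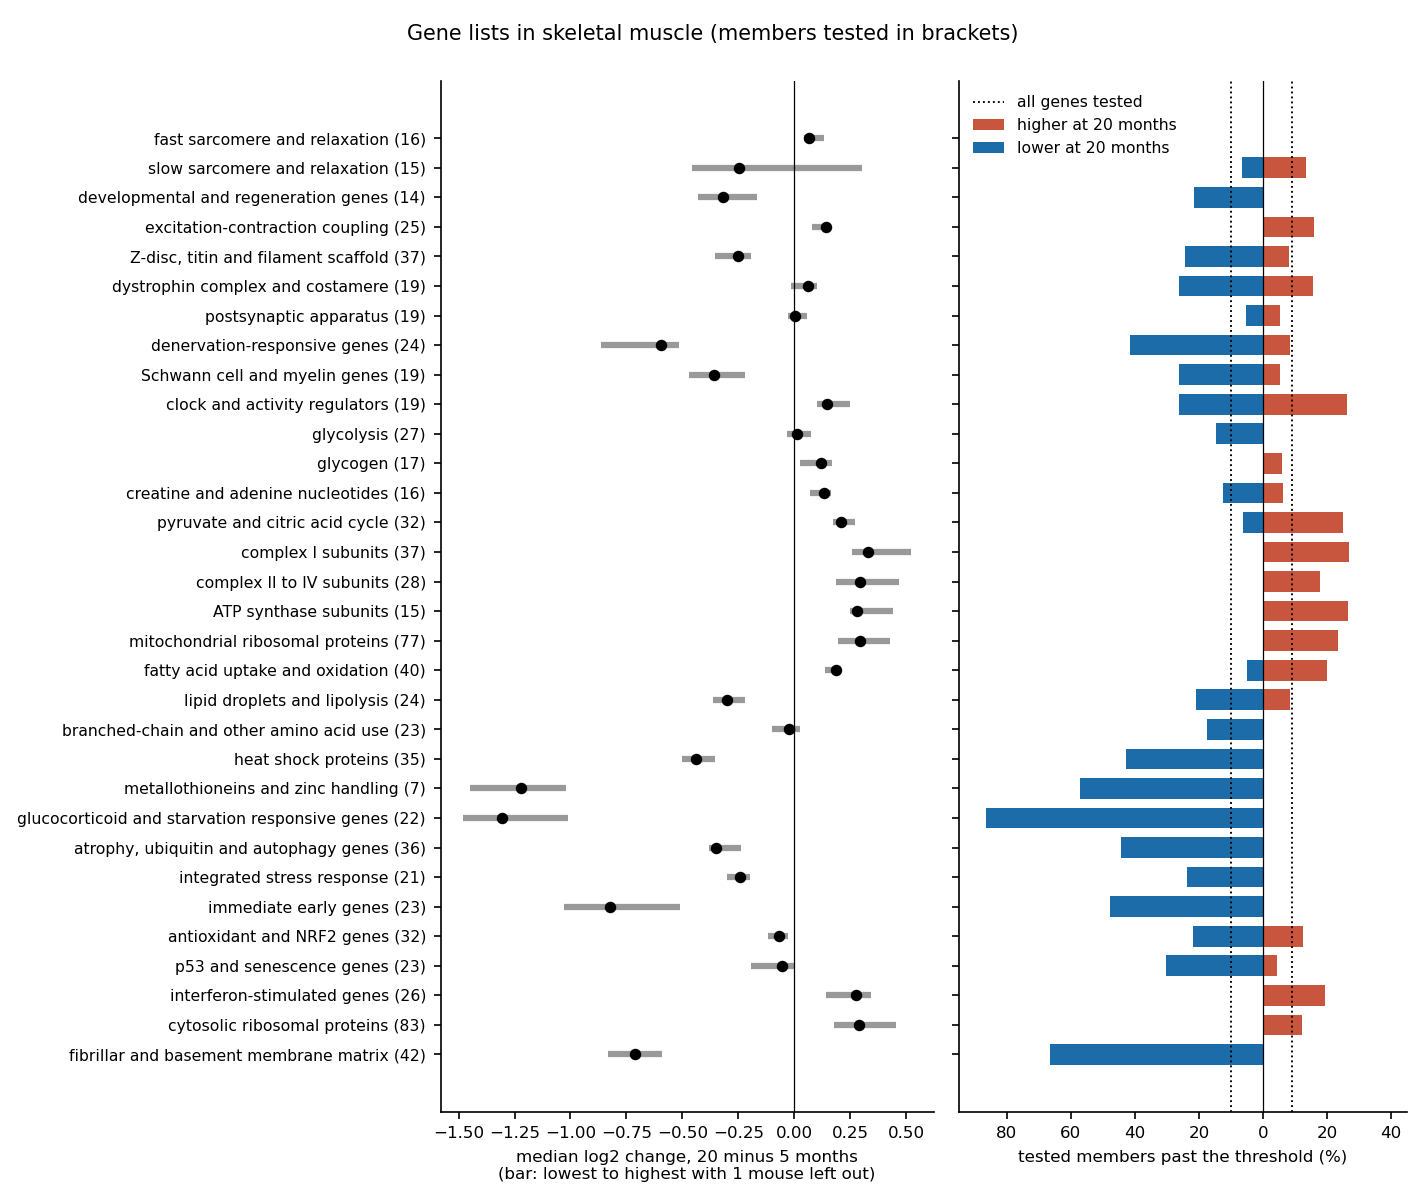
Lists of genes in muscle of *Mlx*KO mice at 20 against 5 months. In one panel, each dot is the median log2 change over the tested members of a list, on the log2(scaled CPM + 1) scale, with a bar for the range of that median when 1 of the 9 mice is left out. In the other, bars give the percentage of members that rose or fell, with dotted lines at the percentages over all genes (9.13% and 10.1%). Cell type markers are not plotted. Among the lists plotted, glucocorticoid responsive genes have the lowest median, -1.30, and complex I subunits the highest, 0.33.

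Genes of several kinds had the largest increases with age. The genes named were the 12 with the largest log2 increase among 798 that rose without overlap and had a mean of at least 3 scaled CPM, of which 3 are predicted or unnamed loci and are not described. *Tmem132b*, a single-pass membrane protein expressed in nervous tissue (chromosome 5, 125532418 to 125792583 in GRCm38.p6), rose by 2.71 on the log2 scale. *Ky* (chromosome 9, 102505755 to 102546247), a Z-disc protein whose loss in mice causes muscle weakness with kyphoscoliosis, was at 8.45, 8.14, 11.4 and 24.9 scaled CPM at 5 months and 32.1, 71.4, 124, 88.4 and 143 at 20 months (log2 change 2.68 ± 0.41 (SE), adjusted p = 0.00298). The lowest old mouse was above the highest young one, and the young mouse X5S5239 was above its 3 companions. *Ostn*, which encodes the muscle-secreted peptide musclin, was at 13.8, 8.71, 5.79 and 3.76 scaled CPM at 5 months and 32.9, 22.5, 34.9, 24.5 and 33.7 at 20 months (log2 change 1.87 ± 0.28 (SE), adjusted p = 0.00264). All old mice were above all young mice, by a factor of 3.71 between the means. *Dkk3*, a secreted member of the Dickkopf family, was at 68.7, 52.9, 61.5 and 61.7 scaled CPM at 5 months and 196, 210.0, 206, 221 and 179 at 20 months (log2 change 1.71 ± 0.0971 (SE), adjusted p = 9.36e-06), with little spread in either age. *Dach2*, a corepressor that links innervation to muscle gene expression, rose by 1.8 and the clock gene *Per3* by 1.61. The remaining ones were *Zbed6* (1.70), *Syt9* (1.61) and *Mettl11b* (1.53). *Zbed6*, a repressor of *Igf2*, lies inside *Zc3h11a*, and *Per3*, *Tmem132b*, *Ostn* and *Dach2* also overlap other annotated genes, so that part of their reads could belong to the other gene. The 9 genes described remained past the threshold when any 1 mouse was left out.

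The largest decreases were led by chaperones and metallothioneins. *Hspa1b* (chromosome 17, 34956429 to 34959238) encodes the stress-inducible chaperone HSP70 and was at 106, 4038, 139 and 1071 scaled CPM at 5 months and 47.0, 12.3, 11.4, 13.4 and 15.1 at 20 months (log2 change -4.82 ± 0.90 (SE), adjusted p = 0.00624). Mouse X5S5001 held the highest value and every old mouse lay below every young mouse. *Hspa1a* is a near-identical neighbouring copy, so that reads may be split between them, and it fell by 4.36 on the log2 scale. The metallothionein *Mt1*, a zinc and copper binding protein induced by metals and glucocorticoids, was at 350.1, 1382, 190.3 and 84.9 scaled CPM at 5 months and 32.1, 29.4, 23.5, 18.9 and 12.5 at 20 months (log2 change -3.69 ± 0.61 (SE), adjusted p = 0.0039). *Mt2*, its neighbour on chromosome 8, was at 254, 1051, 97.5 and 57.1 scaled CPM at 5 months and 17.9, 20.8, 10.3, 9.26 and 11.7 at 20 months (log2 change -3.79 ± 0.65 (SE), adjusted p = 0.00436). For both genes the young mice spread over more than an order of magnitude while the old mice lay close together. *Dnajb1*, the HSP40 partner of HSP70, fell by 3.08 and was highest in mouse X5S5001. *Dnajb1* did not pass the threshold without mouse X18S57, X18S58, X18S59, X18S60 or X5S5239 (log2 changes of -3.15 to -2.97). *Ddit4*, a stress and glucocorticoid induced inhibitor of mTORC1, was at 139, 288, 52.1 and 35.7 scaled CPM at 5 months and 15.8, 19.7, 4.70, 16.6 and 4.56 at 20 months (log2 change -3.05 ± 0.59 (SE), adjusted p = 0.00746), and the transcription factor *Cebpd* at 196, 403, 148 and 101 scaled CPM at 5 months and 37.9, 39.2, 14.5, 37.1 and 15.1 at 20 months (log2 change -2.78 ± 0.40 (SE), adjusted p = 0.00246). In both, the lowest young mouse was above the highest old mouse. The other decreases were *Cyp2e1* (-3.04), *Mrgprg* (-2.68), *Rsc1a1* (-2.66), *Prg4* (-2.59) and *Doc2b* (-2.58). *Rsc1a1* did not pass the threshold without mouse X18S57, X18S58, X5S4299 or X5S5001 (log2 changes of -2.77 to -2.45). *Rsc1a1* lies inside *Ddi2*, and *Cebpd*, *Prg4* and *Doc2b* also overlap other annotated genes. Part of the reads of these genes could therefore belong to the other gene. *Cyp2e1* is also a defining gene of hepatocytes. The hepatocyte list of 6 tested genes had a median log2 change of -1.68 with 1 gene past the threshold, and its part in the fall of *Cyp2e1* was not tested. *Prg4*, or lubricin, coats joint and tendon surfaces, and the tendon markers that fell with it are given among the cell type markers.

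Upstream sequences of 4 genes that fell are shown, chosen after their motif matches were seen, because they hold letters of the elements through which such genes are known to be induced. The window of *Dnajb1* held no match, and that of *Mt1*, with 1 metal response core, is not shown because it runs into the gene as annotated. Each is the 250 bases before the gene start in RefSeq (GRCm38.p6), on the strand of the gene and written 5′ to 3′. In the heat shock genes the capitals mark pairs of inverted heat shock half-sites, GAANNTTC or TTCNNGAA, the units bound by HSF1. In *Mt2* the capitals mark the core of the metal response element, TGCACNC or TGCGCNC on either strand, through which the zinc sensor MTF1 acts.
Hspa1a, chr17:34972157-34972406, minus strand: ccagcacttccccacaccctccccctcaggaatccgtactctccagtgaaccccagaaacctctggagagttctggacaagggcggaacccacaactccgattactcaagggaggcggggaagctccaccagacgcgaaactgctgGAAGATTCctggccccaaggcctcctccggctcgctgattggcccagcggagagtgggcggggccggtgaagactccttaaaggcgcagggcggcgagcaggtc
Hspa1b, chr17:34959239-34959488, minus strand: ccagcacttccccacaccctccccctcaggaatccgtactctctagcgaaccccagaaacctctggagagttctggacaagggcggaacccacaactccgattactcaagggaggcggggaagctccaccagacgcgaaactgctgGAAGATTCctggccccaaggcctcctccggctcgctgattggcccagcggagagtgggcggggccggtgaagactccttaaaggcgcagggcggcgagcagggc
Hspb1, chr5:135887669-135887918, plus strand: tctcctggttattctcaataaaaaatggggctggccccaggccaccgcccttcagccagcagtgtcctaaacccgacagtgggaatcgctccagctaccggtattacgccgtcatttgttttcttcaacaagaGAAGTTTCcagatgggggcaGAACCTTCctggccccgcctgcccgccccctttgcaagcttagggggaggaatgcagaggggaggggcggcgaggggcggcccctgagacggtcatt
Mt2, chr8:94172368-94172617, plus strand: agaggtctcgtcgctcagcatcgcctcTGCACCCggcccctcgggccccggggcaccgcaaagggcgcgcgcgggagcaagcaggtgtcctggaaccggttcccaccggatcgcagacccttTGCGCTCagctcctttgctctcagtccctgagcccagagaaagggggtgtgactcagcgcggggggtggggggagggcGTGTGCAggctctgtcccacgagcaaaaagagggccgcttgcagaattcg

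*Hspa1a* and *Hspa1b* shared 247 of the 250 bases, and each held 1 heat shock match at the same place. *Hspb1* held 2 such matches and *Mt2* held 3 metal response cores. Over 32851 RefSeq upstream windows of this length, 12.8% held a heat shock match of either form and 21.4% a metal response core. Of the heat shock list, 28 tested members had a window. A match stood in 6 of the 12 members that fell and in 7 of the 16 that did not pass the threshold. A match describes letters in the window and is not evidence of binding.

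Contractile genes of fast fibers did not pass the threshold. Of 16 genes of the fast sarcomere and of relaxation, 0 passed the threshold by limma, and 3 did so at an unadjusted p under 0.05. The count tests passed 3 by edgeR (*Myh4* and *Atp2a1* lower, *Tpm1* higher) and 4 by DESeq2, which added *Myh13*. Without mouse X5S5238, 4 rose, and without mouse X18S58, 1 fell. *Myh4*, the main myosin heavy chain of fast glycolytic fibers, was at 63805, 68956, 69981 and 77597 scaled CPM at 5 months and 54015, 56552, 66105, 49838 and 52439 at 20 months (log2 change -0.33, 95% interval -0.70 to 0.03, adjusted p = 0.17 by limma and 0.0302 by edgeR). The young and old mice overlapped. The fast oxidative chains *Myh1* and *Myh2* had changes of -0.02 (interval -0.34 to 0.30) and -0.01 (interval -0.71 to 0.70), and their sign turned with the choice of scaling. Of 15 slow fiber genes, 2 rose and 1 fell. *Casq2*, the calsequestrin of slow and cardiac muscle, rose from a range of 17.4 to 33.1 to one of 27.3 to 53.6 scaled CPM (log2 change 0.90 ± 0.21 (SE), adjusted p = 0.0147), and myoglobin (*Mb*) rose by 0.49. *Myh7b* fell by 0.56. *Mb* kept its call without mouse X5S5238 and lost it without any other mouse (log2 changes of 0.37 to 0.51). *Myh7b* did not pass the threshold without mouse X18S58 or X5S5239 (log2 changes of -0.49 to -0.48). The slow myosin *Myh7* was at 1171, 107, 102 and 112 scaled CPM at 5 months and 112, 110.5, 42.4, 209 and 60 at 20 months (log2 change -1.07 ± 0.68 (SE), adjusted p = 0.271). Mouse X5S4299 stood far above all other mice of either age for *Myh7* and for *Atp2a2*, the slow calcium pump, which was at 871, 156, 121 and 117 scaled CPM at 5 months and 147, 156, 64.4, 186 and 88.8 at 20 months (log2 change -0.81 ± 0.53 (SE), adjusted p = 0.287). Without mouse X5S4299 the median log2 change of the slow list turned from -0.25 to 0.30.

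Of 14 tested genes of the developing and regenerating fiber, 3 fell and 0 rose. *Actc1*, the cardiac actin expressed in immature fibers, fell from a range of 47.7 to 136 to one of 31.2 to 49.0 scaled CPM (log2 change -1.16 ± 0.26 (SE), adjusted p = 0.0134), although the 2 ages overlapped. *Myf6*, the late myogenic regulator, fell by 0.86, and myogenin (*Myog*) by 1.1, with 2.17 to 6.78 scaled CPM at 20 months. *Myf6* did not pass the threshold without mouse X18S60 (a log2 change of -0.81). *Myog* kept its call without mouse X18S56, X5S5238 or X5S5239 and lost it without any other mouse (log2 changes of -1.10 to -0.88). A single gene fell without mouse X18S60, 6 fell without mouse X5S5238, and 1 rose without mouse X18S56. Of 25 excitation-contraction coupling genes, 4 rose and 0 fell, where 9.13% of all genes rose. The 4 were *Orai1*, *Trdn*, *Jph2* and *Cacng6* (log2 changes 0.44, 0.39, 0.59 and 0.38). These calls rested on the full set of mice. The number that rose was 0 when mouse X18S56, X18S57, X18S58, X18S60, X5S4299 or X5S5001 was left out, 1 without mouse X18S59 and 7 without mouse X5S5238.

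The Z-disc and filament scaffold held larger changes in both directions. Of 37 genes tested, 9 fell and 3 rose. *Ankrd1*, a titin-binding ankyrin repeat protein induced by stretch, was at 312, 1829.7, 389 and 955 scaled CPM at 5 months and 476, 71.7, 30.5, 76.1 and 72.5 at 20 months (log2 change -2.90 ± 0.69 (SE), adjusted p = 0.0167). Filamin C (*Flnc*) was at 7201, 23993, 11008 and 19388 scaled CPM at 5 months and 7109.9, 2517, 2032, 3362 and 2262 at 20 months (log2 change -2.17 ± 0.40 (SE), adjusted p = 0.00589), and *Xirp1*, an actin-binding repair protein, at 1933, 9429.7, 2526 and 4661 scaled CPM at 5 months and 2204, 539, 447, 943 and 522 at 20 months (log2 change -2.32 ± 0.51 (SE), adjusted p = 0.0125). All 3 were highest in mouse X5S5001 among the young and in mouse X18S56 among the old. In *Ankrd1* and *Xirp1* mouse X18S56 lay within the range of the young mice and the other old mice lay below it, whereas in *Flnc* all old mice were below the lowest young mouse. The same direction held for *Klhl40*, a stabilizer of thin filament proteins (fell by 2.40), *Csrp3* (fell by 1.51), the small heat shock protein *Cryab* (fell by 1.61) and *Ankrd2* (fell by 1.1). *Nrap* fell by 0.63. *Ankrd2* did not pass the threshold without mouse X18S60 (a log2 change of -1.05). *Nrap* did not pass the threshold without mouse X18S57, X18S58, X18S60, X5S5001 or X5S5239 (log2 changes of -0.62 to -0.52). *Trim63*, the ubiquitin ligase MuRF1, which sits at the titin M-band and marks sarcomere proteins for degradation, was at 3585, 3981, 3928 and 2252 scaled CPM at 5 months and 1728, 1084, 762, 929.5 and 669.9 at 20 months (log2 change -1.78 ± 0.26 (SE), adjusted p = 0.00245) with no overlap. The genes that rose were *Ky*, *Ankrd23* and *Tmod4*. *Ankrd23*, a relative of *Ankrd1* and *Ankrd2*, was at 1762, 1374, 2403 and 2483 scaled CPM at 5 months and 3685, 3778, 3644, 4296 and 4407 at 20 months (log2 change 1.02 ± 0.17 (SE), adjusted p = 0.00393), so members of 1 protein family moved in opposite directions. *Tmod4*, which caps thin filaments, rose by 0.55.

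Of 19 genes of the dystrophin complex and the costamere, which link the cytoskeleton to the matrix, 3 rose and 5 fell. Dystrophin (*Dmd*) was at 118, 121, 93.7 and 126 scaled CPM at 5 months and 218, 210.5, 217, 171 and 191 at 20 months (log2 change 0.81 ± 0.11 (SE), adjusted p = 0.00201). All old mice were above all young mice. The sarcoglycan *Sgcd* rose by 0.47. Vinculin (*Vcl*) fell from a range of 228 to 461 to one of 111 to 198 scaled CPM (log2 change -1.22 ± 0.22 (SE), adjusted p = 0.00502), the membrane repair protein dysferlin (*Dysf*) by 0.83, dystroglycan (*Dag1*) by 0.64 and laminin alpha 2 (*Lama2*) by 0.57. *Tln2* fell by 0.35. *Tln2* kept its call without mouse X18S57 or X5S5238 and lost it without any other mouse (log2 changes of -0.34 to -0.29).

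**Figure D2:**
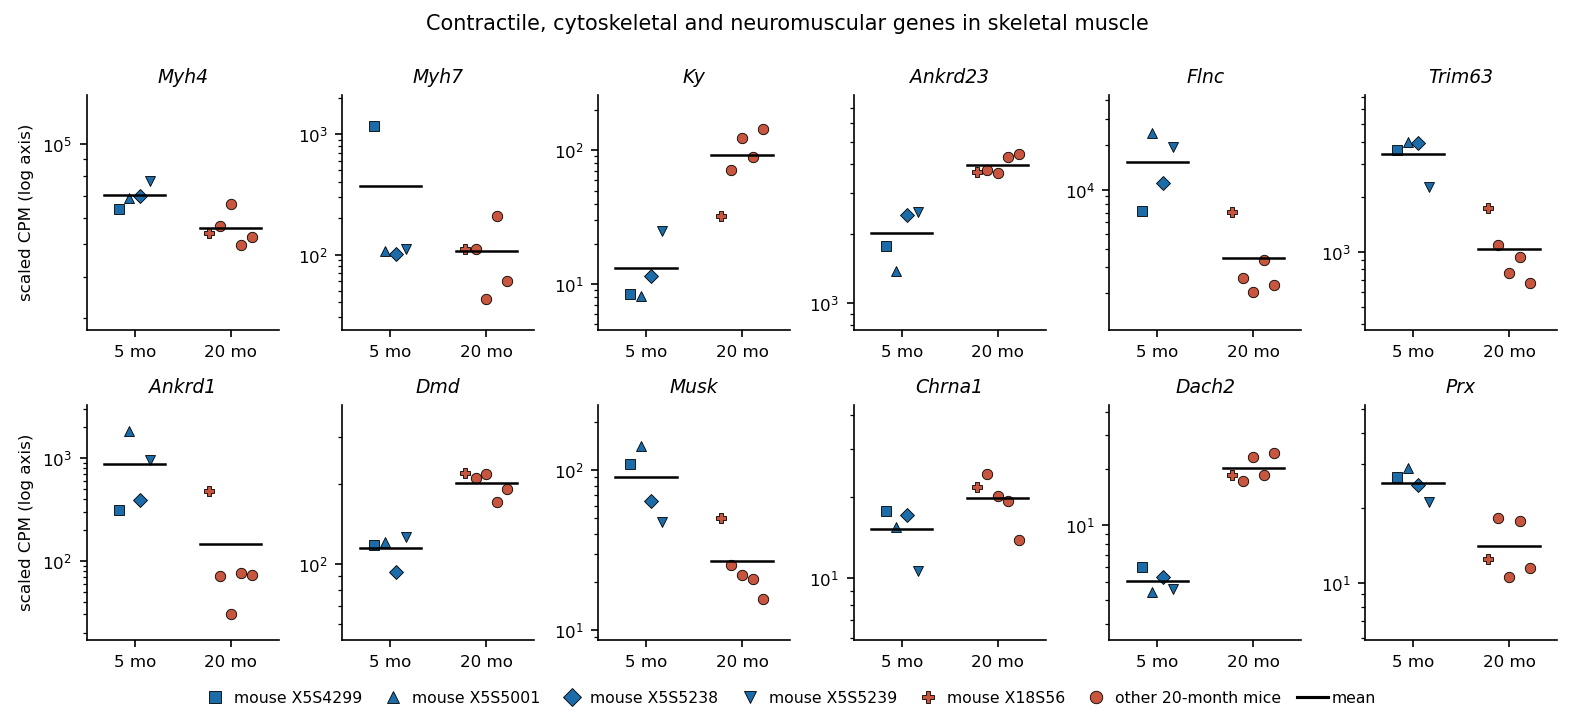
Contractile, scaffold and neuromuscular genes in each mouse, on a log axis of scaled CPM. Each marker is 1 mouse, with the marker shape giving the mouse, and the bar is the mean of the age. *Ky*, *Ankrd23* and *Dmd* lie higher at 20 months with no overlap, *Myh4* and *Chrna1* overlap between the ages, and mouse X5S4299 stands alone for *Myh7*.

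At the neuromuscular junction most genes did not pass the threshold. Of 19 tested genes of the postsynaptic apparatus, 1 rose and 1 fell, and their median log2 change was 0.00. *Musk*, the kinase that clusters acetylcholine receptors, was at 110.0, 142, 64.0 and 47.2 scaled CPM at 5 months and 50.3, 25.6, 22.1, 20.7 and 15.5 at 20 months (log2 change -1.71 ± 0.35 (SE), adjusted p = 0.00908). The old mice other than mouse X18S56 were below all young mice. *Rapsn*, the receptor scaffold, rose by 0.50. *Rapsn* kept its call without mouse X5S5238 or X5S5239 and lost it without any other mouse (log2 changes of 0.36 to 0.55). The receptor subunits *Chrna1* and *Chrne* had log2 changes of 0.36 (95% interval -0.02 to 0.75) and 0.08 (interval -0.25 to 0.41) and did not pass.

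Genes known to respond to denervation fell more often than they rose. Of 24 tested, 10 fell, 2 rose and 12 did not pass, with a median log2 change of -0.60. Over all genes, 10.1% fell and 9.13% rose. This list was compiled from what denervation raises or lowers in muscle and shares *Musk*, *Myog*, *Trim63* and *Ankrd1* with the lists above. Since it mixes both kinds, its counts and median do not give the direction of a denervation response. *Cdkn1a*, the cell cycle inhibitor p21, was at 328, 476, 366 and 223 scaled CPM at 5 months and 107, 87.3, 80, 52.4 and 33.4 at 20 months (log2 change -2.32 ± 0.31 (SE), adjusted p = 0.0017). *Gadd45a*, a denervation-induced nuclear protein, fell from a range of 83.9 to 124 to one of 38.5 to 57.8 scaled CPM (log2 change -1.04 ± 0.15 (SE), adjusted p = 0.00221) and the kinase *Sik1* from a range of 37.98 to 155 to one of 7.31 to 25.9 scaled CPM (log2 change -1.95 ± 0.40 (SE), adjusted p = 0.00999). All 3 fell without overlap of the ages. The ubiquitin ligases *Fbxo32* and *Fbxo30* fell by 0.63 and 0.45 respectively, and *Runx1* fell by 1.33. *Fbxo32* kept its call without mouse X18S57, X5S5001 or X5S5239 and lost it without any other mouse (log2 changes of -0.67 to -0.52). *Fbxo30* kept its call without mouse X18S56, X5S5238 or X5S5239 and lost it without any other mouse (log2 changes of -0.47 to -0.36). *Runx1* did not pass the threshold without mouse X18S58 or X18S60 (log2 changes of -1.30 to -1.19). The members that rose were *Dach2*, at 5.99, 4.43, 5.32 and 4.60 scaled CPM at 5 months and 18.5, 17.2, 23.1, 18.4 and 24.1 at 20 months (log2 change 1.8 ± 0.14 (SE), adjusted p = 7.24e-05), and *Gdf5*, at 0.384, 0.645, 0.704 and 0.209 scaled CPM at 5 months and 3, 1.66, 1.23, 3.53 and 1.71 at 20 months (log2 change 1.08 ± 0.23 (SE), adjusted p = 0.0106). *Dach2* represses myogenin, and *Gdf5* is a bone morphogenetic protein that limits loss of mass in denervated muscle. The number that fell ranged from 6 (without mouse X18S58 or X18S60) to 13 (without mouse X5S5238).

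Of 19 genes of Schwann cells and myelin, which report on the nerve within the sample, 5 fell and 1 rose. These are bulk samples, in which fewer cells of a type and less RNA per cell cannot be told apart. Periaxin (*Prx*) was at 26.6, 28.9, 24.7 and 21.1 scaled CPM at 5 months and 12.5, 18.2, 10.6, 17.8 and 11.4 at 20 months (log2 change -0.83 ± 0.17 (SE), adjusted p = 0.00956), and its partner *Drp2* fell from a range of 18.5 to 36.8 to one of 10.7 to 15.3 scaled CPM (log2 change -0.91 ± 0.19 (SE), adjusted p = 0.011). *Cnp* fell by 0.47, *Sox10* by 0.70 and *Egr2* by 0.82, and *Ngfr* rose by 0.99. *Sox10* did not pass the threshold without mouse X18S57, X18S60, X5S4299 or X5S5001 (log2 changes of -0.72 to -0.55). *Egr2* kept its call without mouse X18S59 or X5S5238 and lost it without any other mouse (log2 changes of -0.90 to -0.59). *Ngfr* kept its call without mouse X18S56, X5S5238 or X5S5239 and lost it without any other mouse (log2 changes of 0.86 to 0.99). Without mouse X18S60, X5S4299 or X5S5001, 3 of them fell.

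Genes of the circadian clock changed on both arms of the cycle. Of 19 genes of the clock and its outputs, 5 rose and 5 fell. *Per3* was at 7.53, 5.32, 7.28 and 9.69 scaled CPM at 5 months and 14.6, 18.3, 25.97, 33.4 and 36.1 at 20 months (log2 change 1.61 ± 0.25 (SE), adjusted p = 0.00315), and *Nr1d2*, the repressor REV-ERB beta, rose from a range of 72.5 to 88.5 to one of 109 to 145 scaled CPM (log2 change 0.64 ± 0.10 (SE), adjusted p = 0.0033). *Arntl*, the activator BMAL1, was at 137, 157, 134 and 129 scaled CPM at 5 months and 106, 74.7, 75.2, 41.8 and 43.5 at 20 months (log2 change -1.10 ± 0.23 (SE), adjusted p = 0.011). *Npas2*, a CLOCK paralog, fell from a range of 6.27 to 11.9 to one of 2.06 to 4.82 scaled CPM (log2 change -1.30 ± 0.23 (SE), adjusted p = 0.00454) and *Nfil3* from a range of 91.7 to 293 to one of 24.1 to 80.7 scaled CPM (log2 change -1.79 ± 0.37 (SE), adjusted p = 0.0104). *Arntl* and *Npas2* were thus lower, and their repressor *Nr1d2* higher, in every old mouse. *Per1*, which also responds to glucocorticoids, fell from a range of 61.1 to 238 to one of 23.1 to 51.2 scaled CPM (log2 change -1.52 ± 0.35 (SE), adjusted p = 0.0154), and *Cry2* fell by 0.82. The increases of *Bhlhe41*, *Tef* and *Hlf* were 1.0, 0.40 and 0.43. *Bhlhe41* did not pass the threshold without mouse X18S56, X18S60, X5S4299 or X5S5001 (log2 changes of 0.72 to 0.96). *Tef* kept its call without mouse X18S56, X5S4299 or X5S5238 and lost it without any other mouse (log2 changes of 0.30 to 0.40). *Hlf* kept its call without mouse X18S56 and lost it without any other mouse (log2 changes of 0.38 to 0.47). The number that rose was 2 without mouse X18S60 or X5S5001 and 3 without mouse X18S57, X18S58, X18S59, X5S4299 or X5S5239. The time of day at which the tissues were taken is not given in the sources used here, so a difference in sampling time and a change of the clock cannot be told apart.

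Among the metabolic lists, those of fuel oxidation in mitochondria held more rising than falling members, and those of lipid storage, glycolysis and amino acid use more falling ones. In glycolysis and amino acid use the falling share was 14.8% and 17.4%, where 10.1% of all genes fell. Their median log2 changes were 0.01 and -0.02, so these 2 lists had no common direction. Of 40 tested genes of fatty acid uptake and oxidation, 8 rose and 2 fell. *Acadm*, the medium-chain acyl-CoA dehydrogenase, was at 377, 326, 413 and 341 scaled CPM at 5 months and 526.3, 514, 593, 560.0 and 584 at 20 months (log2 change 0.61 ± 0.0944 (SE), adjusted p = 0.00312). *Fabp3*, the fatty acid carrier of muscle, was at 516, 329, 768 and 534 scaled CPM at 5 months and 949.5, 1028, 1083, 1256 and 953 at 20 months (log2 change 1.03 ± 0.20 (SE), adjusted p = 0.00691). *Hadhb*, *Decr1* and *Acaa2*, which act in the later steps of beta-oxidation, rose by 0.47, 0.50 and 0.42. These 5 genes were higher in every old mouse than in any young mouse. *Ppard*, a nuclear receptor that drives this pathway, fell from a range of 41.0 to 64.6 to one of 27.2 to 33.2 scaled CPM (log2 change -0.71 ± 0.13 (SE), adjusted p = 0.00502), and *Ucp2*, a mitochondrial carrier, from a range of 34.4 to 67.4 to one of 14.97 to 30.1 scaled CPM (log2 change -1.11 ± 0.23 (SE), adjusted p = 0.00948). The number that rose was 5 without mouse X18S58, X18S59, X18S60 or X5S5001, and 16 without mouse X5S5238.

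Of 24 genes of lipid droplets and lipolysis, 2 rose and 5 fell. *Gpam*, the mitochondrial enzyme that begins triglyceride synthesis, was at 400.3, 182, 256 and 275 scaled CPM at 5 months and 419.9, 558, 628, 689.9 and 649 at 20 months (log2 change 1.11 ± 0.20 (SE), adjusted p = 0.00569). *Pnpla2*, or adipose triglyceride lipase, the first enzyme of lipolysis, was at 1009, 888, 1049.6 and 812 scaled CPM at 5 months and 632, 685, 579, 651 and 464 at 20 months (log2 change -0.65 ± 0.13 (SE), adjusted p = 0.00783), and its coactivator *Abhd5* rose by 0.36. *Abhd5* kept its call without mouse X18S59, X5S5238 or X5S5239 and lost it without any other mouse (log2 changes of 0.30 to 0.38). The droplet coat proteins *Plin4* and *Plin3* fell by 0.82 and 0.69 and the phosphatidate phosphatase *Lpin1* by 0.64. *Angptl4*, an inhibitor of lipoprotein lipase induced by fasting, fell by 0.72. *Angptl4* did not pass the threshold without mouse X5S4299 or X5S5239 (log2 changes of -0.69 to -0.67). Without mouse X5S5238, 8 members fell.

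Most glycolytic genes did not pass the threshold. Of 27 tested, 4 fell and 0 rose, and the median log2 change was 0.01. *Slc2a1*, the basal glucose transporter GLUT1, fell from a range of 19.5 to 41.1 to one of 10.97 to 16.1 scaled CPM (log2 change -1.0 ± 0.19 (SE), adjusted p = 0.00624), *Hk1* by 0.71, *Eno1* by 0.35 and the regulatory kinase *Pfkfb4* by 1.02. *Hk1* did not pass the threshold without mouse X18S58 or X18S60 (log2 changes of -0.70 to -0.67). *Eno1* did not pass the threshold without mouse X18S57 or X5S5001 (log2 changes of -0.31 to -0.30). *Pfkfb4* did not pass the threshold without mouse X18S56, X18S57, X18S59 or X18S60 (log2 changes of -1.05 to -0.95). Without mouse X5S5238, 6 members rose, and without mouse X18S57 or X18S60, 2 fell. Of 17 glycogen genes, 1 rose (*Stbd1*, 0.56), where 9.13% of all genes did. *Stbd1* kept its call without mouse X18S59, X18S60 or X5S5238 and lost it without any other mouse (log2 changes of 0.45 to 0.58). Of 16 genes of creatine and adenine nucleotide metabolism, *Ampd3* and *Prkaa1* fell and *Prkaa2* rose. *Ampd3*, an AMP deaminase that rises on denervation and fasting, was at 129, 440.4, 76.1 and 115 scaled CPM at 5 months and 42.8, 27.1, 22.9, 34.4 and 19.2 at 20 months (log2 change -2.37 ± 0.41 (SE), adjusted p = 0.00454), and the lowest young mouse was above every old mouse. The catalytic subunits of AMP-activated kinase moved in opposite directions, with *Prkaa2*, the form that predominates in muscle, at 0.45 and *Prkaa1* at -0.37 on the log2 scale. *Prkaa1* did not pass the threshold without mouse X18S59, X18S60, X5S4299 or X5S5001 (log2 changes of -0.36 to -0.34). Of 32 genes of pyruvate use and the citric acid cycle, 8 rose and 2 fell. *Pdp1*, the phosphatase that activates pyruvate dehydrogenase, was at 32.7, 26.6, 43.4 and 44.9 scaled CPM at 5 months and 59.9, 51.5, 76.7, 50.3 and 79.4 at 20 months (log2 change 0.77 ± 0.18 (SE), adjusted p = 0.0162). *Pdk4*, the kinase that inactivates it and rises in fasting, fell by 0.57. *Pdk4* did not pass the threshold without mouse X18S57, X18S58, X18S59, X18S60 or X5S4299 (log2 changes of -0.57 to -0.49). *Mpc1* and *Pdhx*, which bring pyruvate into the mitochondrion and its dehydrogenase, rose by 0.40 and 0.35. *Mpc1* did not pass the threshold without mouse X18S58, X18S60, X5S5001 or X5S5239 (log2 changes of 0.32 to 0.40). *Pdhx* did not pass the threshold without mouse X18S58, X18S60 or X5S5001 (log2 changes of 0.27 to 0.34). *Got1* fell by 0.48. The number of risers of this list was 8 with all mice, 1 without mouse X18S58, X18S60 or X5S5001, 3 to 5 without mouse X18S56, X18S57, X18S59, X5S4299 or X5S5239, and 16 without mouse X5S5238.

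Among subunits of the respiratory chain and proteins of both ribosomes, those that passed the threshold rose, by small amounts, and most members did not pass. Of 37 complex I subunits, 10 rose and 0 fell, where 9.13% of all genes rose. In complex I 35 changes were positive, and the median log2 change was 0.33. Of 28 subunits of complexes II to IV, 5 rose, of 15 subunits of ATP synthase 4 rose, and of 77 mitochondrial ribosomal proteins 18 rose, with medians of 0.29, 0.28 and 0.29 and 0 members that fell. In complexes II to IV 24 changes were positive, and in the mitochondrial ribosome 73. *Ndufa11* rose by 0.64, *Mrpl53* by 0.65, *Mrpl48* by 0.63 and *Mrpl30* by 0.48. All 4 remained past the threshold without any 1 mouse. Of 83 cytosolic ribosomal proteins, 10 rose and 0 fell, against 9.13% that rose over all genes, and 77 changes were positive, with a median of 0.29. *Rps25*, a small subunit protein, was at 125, 132, 215 and 147 scaled CPM at 5 months and 272, 223, 226, 231 and 239 at 20 months (log2 change 0.65 ± 0.14 (SE), adjusted p = 0.0132). The young mice were spread more widely than the old ones. Summed over complex I, the values were 5562 to 9121 scaled CPM at 5 months and 7486 to 8658 at 20 months, so that the old mice lay inside the range of the young. Without mouse X5S5238 the number that rose was 32 for complex I, 20 for complexes II to IV, 13 for ATP synthase, 49 for mitochondrial and 63 for cytosolic ribosomal proteins. Without mouse X5S4299 it was 1, 0, 0, 4 and 1 in the same order, and without mouse X5S5001 it was 1, 0, 0, 4 and 2. Leaving out mouse X18S56, X18S57, X18S58, X18S59, X18S60 or X5S5239 gave 1 to 4 for complex I, 0 to 3 for complexes II to IV, 0 or 1 for ATP synthase, 3 to 8 for mitochondrial and 2 to 5 for cytosolic ribosomal proteins. When values were corrected for the length and GC content of the transcripts, a step added once the data had been seen, the medians were 0.19 for complex I, 0.11 for complexes II to IV, 0.19 for ATP synthase, 0.18 for mitochondrial and 0.10 for cytosolic ribosomal proteins, of which 6, 6, 5, 12 and 11 rose. With this correction 2 subunits of complexes II to IV and 1 cytosolic ribosomal protein fell.

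Of 23 genes of branched-chain and other amino acid use, 4 fell and 0 rose. *Glul*, glutamine synthetase, by which muscle supplies glutamine to other tissues, was at 1592, 2435, 1493 and 943 scaled CPM at 5 months and 518, 340.3, 333, 295 and 170.0 at 20 months (log2 change -2.29 ± 0.30 (SE), adjusted p = 0.00166). Every young mouse was above every old mouse. The amino acid transporters *Slc43a1* and *Slc7a8* fell from a range of 109.5 to 212 to one of 41.6 to 52.9 scaled CPM (log2 change -1.66 ± 0.16 (SE), adjusted p = 0.000425) and from a range of 28.4 to 72.6 to one of 9.31 to 13.9 scaled CPM (log2 change -2.0 ± 0.25 (SE), adjusted p = 0.0013). *Gpt2*, the alanine aminotransferase, fell by 0.57.

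**Figure D3:**
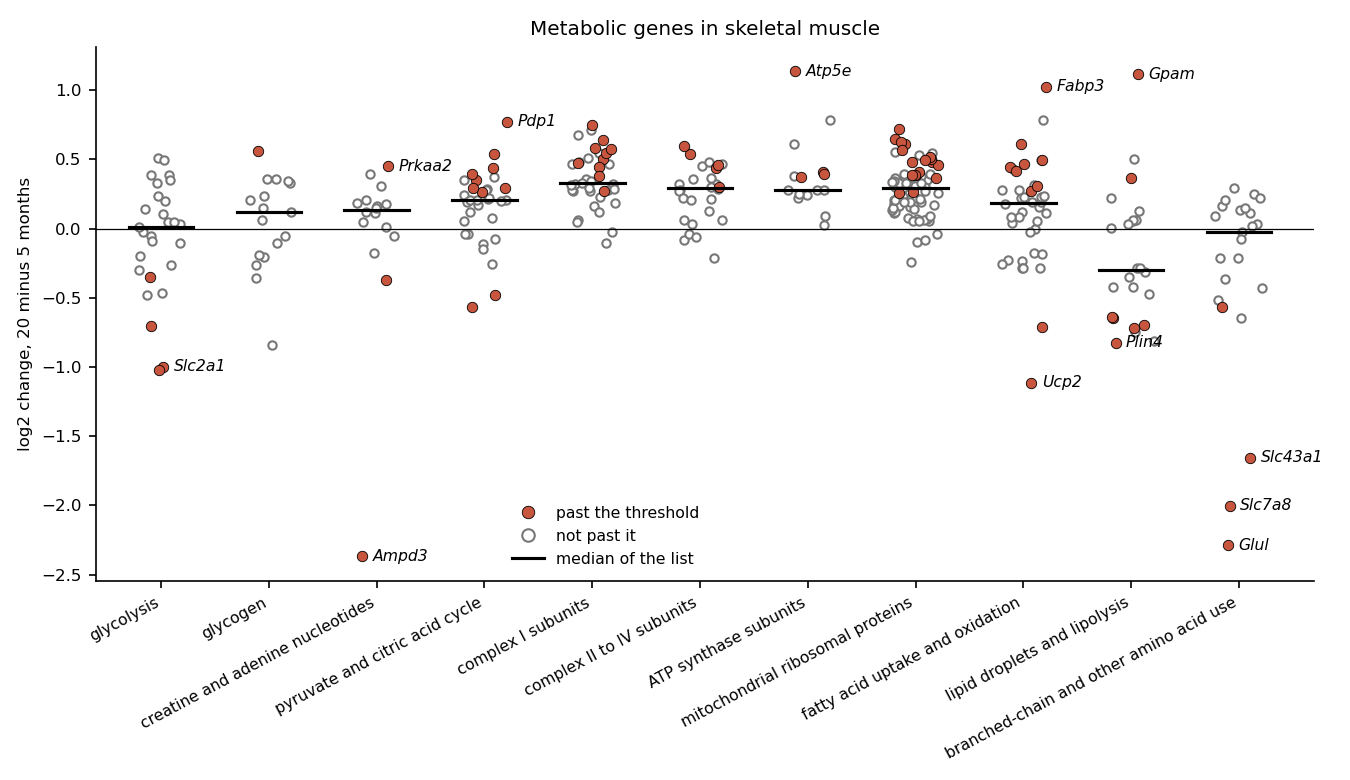
Log2 change of each tested gene in 11 lists of metabolic genes and mitochondrial ribosomal proteins, at 20 against 5 months in muscle of *Mlx*KO mice. Changes are on the log2(scaled CPM + 1) scale. Each point is a gene, filled where it passed the threshold, and the line is the median of the list. Complex I and mitochondrial ribosomal proteins lie mostly above 0 by small amounts, while *Glul* and *Ampd3* stand far below.

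Several stress lists held many falling and no rising members. Some lists share members, so their counts are not independent of each other. *Atf3*, for example, stands in both the integrated stress response and the immediate early lists. Of 35 heat shock genes, 15 fell and 0 rose (42.9% against 10.1% over all genes), with a median log2 change of -0.44. Beside *Hspa1a*, *Hspa1b* and *Dnajb1*, the small heat shock protein *Hspb1*, which protects actin filaments, was at 1112, 3823, 1548 and 2746 scaled CPM at 5 months and 911, 341, 257, 378 and 311 at 20 months (log2 change -2.39 ± 0.39 (SE), adjusted p = 0.00389). Mouse X18S56 again was the highest of the old mice. *Hspb7* fell by 1.15, the cochaperone *Bag3* by 1.42, *Hsp90aa1* by 1.91, *Hspb8* by 1.27 and *Hspa8* by 0.88. *Bag3* did not pass the threshold without mouse X18S60 (a log2 change of -1.38). *Hsp90aa1* did not pass the threshold without mouse X18S57, X18S58, X18S59, X18S60 or X5S5239 (log2 changes of -1.89 to -1.82). *Hspb8* kept its call without mouse X18S56, X5S4299 or X5S5238 and lost it without any other mouse (log2 changes of -1.25 to -1.03). *Hspa8* kept its call without mouse X18S56, X5S4299 or X5S5238 and lost it without any other mouse (log2 changes of -0.85 to -0.61). *Hsf1*, the transcription factor that induces these genes, had a log2 change of -0.26 and did not pass (adjusted p = 0.0719). Of the 35, 11 fell without mouse X5S5001, 6 to 8 without mouse X18S57, X18S58, X18S59, X18S60 or X5S5239, and 14 to 16 without mouse X18S56, X5S4299 or X5S5238.

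Of 7 tested genes of metallothioneins and zinc handling, 4 fell, in every analysis that left out 1 mouse. Beside *Mt1* and *Mt2*, the zinc importer *Slc39a14* was at 105, 274, 59.3 and 46.9 scaled CPM at 5 months and 27.3, 19.3, 13.96, 15.1 and 14.5 at 20 months (log2 change -2.38 ± 0.41 (SE), adjusted p = 0.00465). Old and young mice did not overlap. *Slc30a2* fell by 1.22, while *Slc30a1*, an exporter that responds to zinc through MTF1, had a log2 change of 0.16 (95% interval -0.16 to 0.47).

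Most genes that glucocorticoids and starvation raise in muscle fell. Of 22 tested, 19 fell, 0 rose and all 22 log2 changes were negative. The median was -1.30. *Fkbp5*, a cochaperone of the glucocorticoid receptor and a sensitive readout of it, was at 446, 411, 309.8 and 215 scaled CPM at 5 months and 134, 196, 174, 87.0 and 51.7 at 20 months (log2 change -1.52 ± 0.35 (SE), adjusted p = 0.0148). *Foxo1*, the transcription factor of the fasting response, was at 212, 246, 95.5 and 96.6 scaled CPM at 5 months and 54.3, 51.1, 54.3, 37.3 and 36.4 at 20 months (log2 change -1.67 ± 0.28 (SE), adjusted p = 0.00394). Both were higher in every young mouse than in any old mouse. The same held for *Tsc22d3*, or GILZ, with a log2 change of -1.12, *Zbtb16* with -0.95, *Foxo3* with -0.83, *Cebpb* with -1.38, *Gadd45g* with -1.56 and *Sesn1* with -1.73. *Klf15* fell by 0.81 with overlap. *Nr3c1*, the receptor itself, was at 114, 126, 122 and 139 scaled CPM at 5 months and 138, 119, 128, 109.7 and 108 at 20 months (log2 change -0.06, interval -0.27 to 0.16) and was the member with the smallest change. Between 14 (without mouse X5S4299) and 20 (without mouse X5S5238) members fell when 1 mouse was left out, and the median without mouse X5S5001 was -1.01. As for the clock genes, the time of day of tissue collection is not given, so sampling time and age cannot be told apart here. The same limit holds for the chaperones, metallothioneins and immediate early genes, which also respond within hours.

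Atrophy, ubiquitin and autophagy genes shared this direction, with 16 of 36 lower and 0 higher. The autophagy genes *Gabarapl1* and *Ulk1* fell by 1.34 and 0.74. *Mstn*, which encodes myostatin, the inhibitor of muscle growth, was at 97.97, 144, 69.8 and 72.5 scaled CPM at 5 months and 60.7, 42.4, 44.2, 30.0 and 27.7 at 20 months (log2 change -1.20 ± 0.25 (SE), adjusted p = 0.0099). Each of these 3 genes fell without overlap between the ages. In this list 9 genes fell without mouse X18S58 or X18S60. Of 33 proteasome subunits 3 rose and 1 fell, with *Psmd11*, the member that fell, at -0.78. Without any 1 mouse other than mouse X5S5238 no subunit rose, and without mouse X5S5238 16 did.

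Of 21 genes of the integrated stress response, 5 fell and 0 rose, in every analysis that left out 1 mouse. *Atf3*, its acute inducible factor, was at 147, 780.5, 261 and 627 scaled CPM at 5 months and 242, 15.4, 17.4, 22.3 and 28.2 at 20 months (log2 change -3.42 ± 0.73 (SE), adjusted p = 0.0114). Mouse X18S56 overlapped the young mice and the other old mice did not. *Atf4*, the translationally controlled regulator of the pathway, fell by 0.54 and the phosphatase subunit *Ppp1r15a* by 1.27. Of 24 chaperones of the endoplasmic reticulum, 3 fell and 1 rose, led by *Edem1*, a factor of glycoprotein degradation, at 113, 122, 76.6 and 66.8 scaled CPM at 5 months and 33.9, 21.3, 15.9, 18.2 and 15.7 at 20 months (log2 change -2.14 ± 0.23 (SE), adjusted p = 0.000917). *Xbp1* fell by 0.61 and *P4hb* rose by 0.35. *Xbp1* kept its call without mouse X18S56, X5S4299 or X5S5238 and lost it without any other mouse (log2 changes of -0.62 to -0.43). *P4hb* kept its call without mouse X5S5238 and lost it without any other mouse (log2 changes of 0.26 to 0.38). Without mouse X18S57, X18S58, X18S59, X18S60 or X5S5001 a single member fell, and without mouse X5S5238 5 did.

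Antioxidant genes moved both ways. Of 32 genes of the NRF2 and glutathione systems, 7 fell and 4 rose. *Hmox1*, the inducible heme oxygenase, was at 91.4, 104, 19.3 and 17.7 scaled CPM at 5 months and 10.4, 12.9, 8.97, 11.02 and 8.62 at 20 months (log2 change -1.96 ± 0.47 (SE), adjusted p = 0.0174) and *Srxn1*, which repairs peroxiredoxins, at 213, 705, 244 and 359 scaled CPM at 5 months and 207, 83.2, 58.4, 88.3 and 74.97 at 20 months (log2 change -1.86 ± 0.38 (SE), adjusted p = 0.0092). The young mice were above all old mice for both. Glutamate-cysteine ligase fell in both subunits, *Gclm* by 0.78 and *Gclc* by 0.52. *Gclc* did not pass the threshold without mouse X18S57, X18S60 or X5S4299 (log2 changes of -0.50 to -0.41). In contrast, *Nqo1*, *Gsta4* and *Gpx4* rose by 0.44, 0.56 and 0.59, while *Gpx1* fell by 0.45. The number that fell was 4 without mouse X18S57 or X18S60, and 7 rose without mouse X5S5238.

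Immediate early genes fell in 11 of 23 tested, with 0 higher. *Egr1* was at 115, 859.6, 28.3 and 42.6 scaled CPM at 5 months and 29.9, 12.6, 5.86, 23.6 and 8.91 at 20 months and *Fos* at 159, 412, 31.4 and 47.2 scaled CPM at 5 months and 50.3, 19.5, 5.50, 24.6 and 9.48 at 20 months, with log2 changes of -2.85 and -2.49. The old and young mice overlapped for both. *Egr1* did not pass the threshold without mouse X18S57, X18S58, X18S60 or X5S4299 (log2 changes of -2.82 to -2.57). *Fos* did not pass the threshold without mouse X18S57, X18S58, X18S60, X5S4299 or X5S5001 (log2 changes of -2.54 to -1.82). The RNA-destabilizing factor *Zfp36* fell from a range of 28.01 to 102 to one of 9.76 to 18.2 scaled CPM (log2 change -1.76 ± 0.33 (SE), adjusted p = 0.00698), *Maff* by 1.5 and *Ier2* by 1.03, and these did not depend on any 1 mouse. Of the immediate early genes 5 or 6 fell without mouse X18S57, X18S58, X18S60 or X5S4299. Of 23 p53 and senescence genes, 7 fell and 1 rose. *Btg2*, which is also an early response gene, fell by 2.32. *Eda2r*, a death receptor and p53 target, was at 46.9, 32.6, 46.9 and 52.4 scaled CPM at 5 months and 113, 96.1, 61.3, 73.9 and 74.3 at 20 months (log2 change 0.88 ± 0.18 (SE), adjusted p = 0.00973), higher in every old mouse. Of 26 interferon-stimulated genes, 5 rose and 0 fell. *Bst2* and *Gbp3* rose by 0.72 and 0.66 and *Ifi27* and *Igtp* by 0.50 and 0.62. *Bst2* did not pass the threshold without mouse X18S57, X18S59, X5S4299 or X5S5001 (log2 changes of 0.58 to 0.69). *Gbp3* did not pass the threshold without mouse X18S57, X18S59, X5S4299 or X5S5001 (log2 changes of 0.54 to 0.61). *Ifi27* kept its call without mouse X18S58 or X5S5238 and lost it without any other mouse (log2 changes of 0.41 to 0.50). *Igtp* kept its call without mouse X5S5238 or X5S5239 and lost it without any other mouse (log2 changes of 0.50 to 0.67). No member rose without mouse X18S57, X18S59, X5S4299 or X5S5001, and 2 or 3 rose without mouse X18S58, X18S60 or X5S5239.

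**Figure D4:**
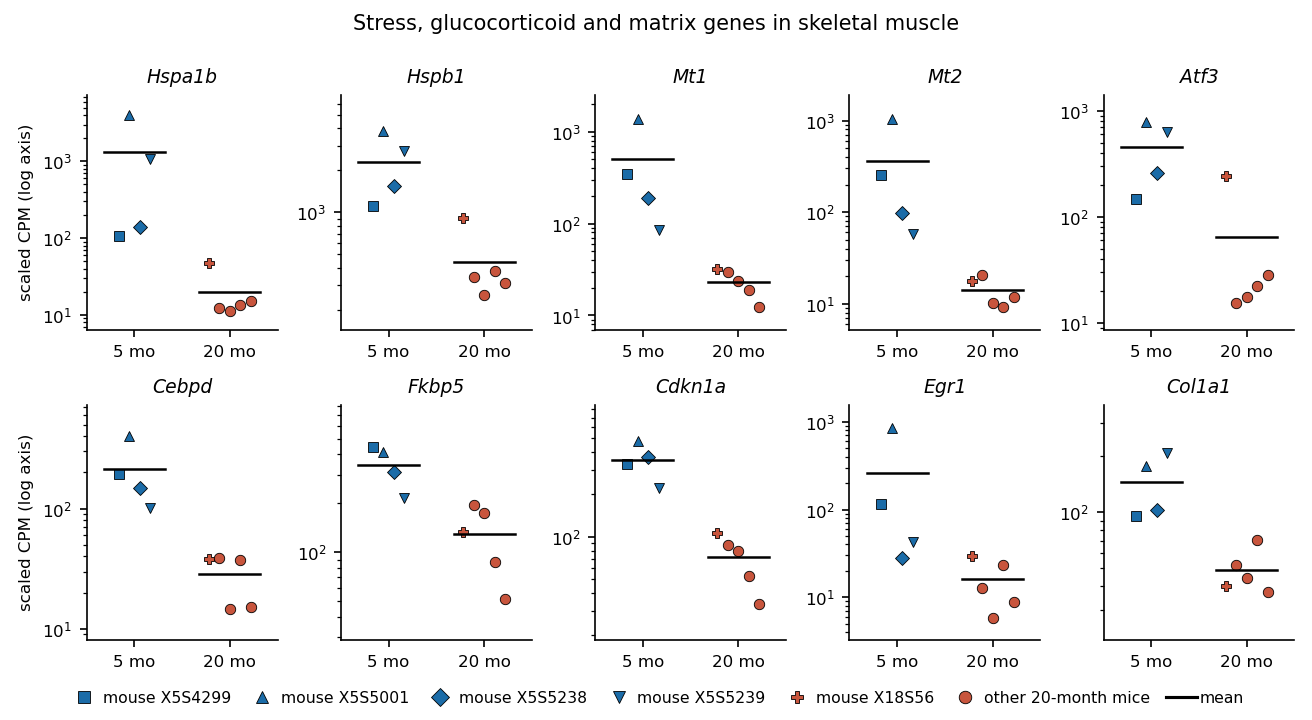
Stress, glucocorticoid responsive and matrix genes in each mouse, on a log axis of scaled CPM. Each marker is 1 mouse, with the marker shape giving the mouse, and the bar is the mean of the age. *Hspa1b*, *Mt1*, *Mt2*, *Cebpd*, *Fkbp5* and *Col1a1* lie lower in all 5 old mice, *Atf3* and *Egr1* overlap, and mouse X5S5001 is highest for *Hspa1b* and *Egr1*.

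Matrix genes fell in 28 of 42 tested genes of fibrillar collagens, basement membranes and their enzymes, with 0 higher and a median log2 change of -0.71. *Col1a1* was at 94.8, 177, 102 and 207 scaled CPM at 5 months and 40.03, 52.1, 44.2, 70.9 and 37.1 at 20 months (log2 change -1.51 ± 0.25 (SE), adjusted p = 0.0038). *Col1a2*, *Col3a1*, *Col4a1* and fibronectin (*Fn1*) fell by 1.52, 1.13, 1.29 and 1.41, and *Lox*, the collagen crosslinking enzyme, by 1.77. All 6 fell without overlap. The number that fell was 20 to 35 when 1 mouse was left out.

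Markers of several non-fiber cell types were also lower. Of 8 tendon cell markers, 5 fell and 1 rose, and their sum was 546 to 701 scaled CPM at 5 months and 165 to 385 at 20 months. *Thbs4*, *Comp* and *Fmod*, which are matrix proteins of tendon, fell by 1.4, 1.44 and 1.15. Of 10 markers of fibro-adipogenic progenitors and fibroblasts, 3 fell and 3 log2 changes were positive. Their sum was 1617 to 1997 scaled CPM at 5 months and 962 to 1410.3 at 20 months. Neither the tendon nor the fibroblast sum overlapped between the ages. *Gsn* made up most of the fibroblast sum, with means of 1401 scaled CPM at 5 months and 780.5 at 20 months. That sum therefore mainly follows 1 gene. Of 9 macrophage markers, 5 fell, and their sum was 166 to 285 scaled CPM at 5 months and 95.9 to 180.4 at 20 months, with overlap. Without mouse X18S59, 8 of them fell. *Cd68* was at 9.60, 18.6, 16.1 and 20.8 scaled CPM at 5 months and 8.48, 2.86, 2.89, 3.38 and 2.78 at 20 months (log2 change -1.82 ± 0.29 (SE), adjusted p = 0.00328), and *Csf1r*, *Cd163* and *C1qc* fell by 1.03, 1.35 and 0.88. Of 10 endothelial markers 2 fell, of 10 of smooth muscle and pericytes 3, of 8 of satellite cells 2, of 8 of Schwann cells 3, of 6 of red blood cells 3 and of 9 of white fat cells 1. All these counts stand against 10.1% that fell over all genes tested, a share that white fat markers did not clearly exceed. White fat markers had a median log2 change of 0.00 with 5 of 9 positive, and endothelial markers one of -0.11 with 4 of 10 positive. Of 6 markers of neutrophils, 5 of mast cells and 5 of brown fat cells, 0 passed the threshold by limma, with 0, 0 and 1 at an unadjusted p under 0.05, 0 by edgeR and 1, of brown fat, by DESeq2. The only tested gene of cartilage and bone, *Ibsp*, fell. Most of these counts depended on single mice. No endothelial marker fell without mouse X18S56, X18S58, X18S59, X18S60 or X5S5001, and 1 fell without mouse X18S57 or X5S4299. Of the red blood cell markers 1 fell without mouse X18S57, X18S58, X18S60, X5S5001 or X5S5239, of the smooth muscle and pericyte markers 1 without mouse X18S60 or X5S4299, and of the satellite cell markers 1 without mouse X18S56, X18S57, X18S59, X18S60 or X5S4299. Without mouse X18S59, 3 of 4 tested neutrophil markers fell. Without mouse X5S5238, 2 white fat markers fell, and of brown fat 1 rose and 1 fell. *Ibsp* kept its call only without mouse X18S59, X5S4299 or X5S5238. Of the tendon markers 5 fell without any 1 mouse, and 1 rose without mouse X5S5238 or X5S5239 and none without any other mouse. How much these cell types contribute to the matrix, Schwann cell or stress results was not tested.

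Among 22 factors that muscle secretes, 4 rose and 6 fell. *Ostn*, *Il15* and *Cx3cl1* rose by 1.87, 0.65 and 0.78. *Il15*, a cytokine with effects on fat and immune cells, was at 5.61, 5.56, 5.87 and 3.97 scaled CPM at 5 months and 7.43, 8.38, 8.68, 8.60 and 11.05 at 20 months (log2 change 0.65 ± 0.14 (SE), adjusted p = 0.0126). The ages did not overlap. *Vegfa*, the main angiogenic factor of muscle, rose by 0.73, and *Sparc* and myostatin were among those that fell (-0.67 and -1.20). *Vegfa* kept its call without mouse X18S56, X5S5238 or X5S5239 and lost it without any other mouse (log2 changes of 0.49 to 0.73). Without mouse X18S57, X18S58 or X18S60, 3 factors fell.

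The age change in muscle was then compared with the mean age change of liver and adipose tissue, the other tissues of the series. This used 1 fit over all 27 samples. Mouse numbers are shared across the tissues at 5 months only. Of 15572 genes tested, 16.8% differed at an adjusted p under 0.05. The 26 genes compared here were picked from those past the threshold in muscle, and 18 of them differed. Because of that choice, their share is not to be set against the 16.8%. *Atf3* had a log2 change of -3.42 in muscle, 1.41 in liver and 1.92 in adipose tissue (difference -5.09 ± 0.76 (SE), adjusted p = 0.000188). *Hspa1b* had -4.82, -0.77 and -0.19 (difference -4.34 ± 0.91, adjusted p = 0.00302). Its fall was larger in muscle than in the mean of the others, as it was for *Mt1*, *Mt2* and *Cebpd* (differences -2.52, -2.54 and -2.09). For *Edem1* the difference was -2.35, for *Hmox1* -2.65, for *Gadd45a* -2.06, for *Sesn1* -2.05 and for *Glul* -2.09. Collagens had negative changes in muscle and positive ones in liver, with *Col1a1* at -1.51 in muscle, 1.59 in liver and -0.03 in adipose tissue (difference -2.29, adjusted p = 0.000517). The differences for *Col1a2* and *Col3a1* were -2.01 and -2.16. The macrophage marker *Cd68* was at -1.82, 0.98 and 1.5 (difference -3.06). Among metabolic genes, *Gpam* was at 1.11 in muscle and -0.70 and -1.40 in liver and adipose tissue (difference 2.16 ± 0.31, adjusted p = 0.00011). *Prkaa2* (1.06), *Ucp2* (-1.74) and *Pfkfb4* (-2.14) also differed.

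For the other 8 of the 26 genes the difference did not pass the threshold, among them the 4 clock genes compared. Of 6 genes compared from the glucocorticoid and starvation list, *Cebpd*, *Sesn1* and *Glul* differed, and *Fkbp5*, *Zbtb16* and *Per1* did not pass. *Fkbp5* had log2 changes of -1.52, -1.61 and -1.98 in muscle, liver and adipose tissue (difference 0.28 ± 0.49 (SE), adjusted p = 0.738). *Per1* had -1.52, -0.97 and -1.67 (difference -0.20 ± 0.59), and *Npas2* had -1.30, -1.09 and -1.69 (difference 0.09 ± 0.54). The differences of *Zbtb16*, *Arntl*, *Per3*, *Acadm* and *Fabp3* were 0.42, -0.23, 0.87, 0.13 and -0.25, with standard errors of 0.71, 0.35, 0.53, 0.23 and 0.54. Errors of this size leave room for differences of about 1 log2 unit in several of them. A p that misses the threshold does not show that the tissues changed alike.

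**Figure D5:**
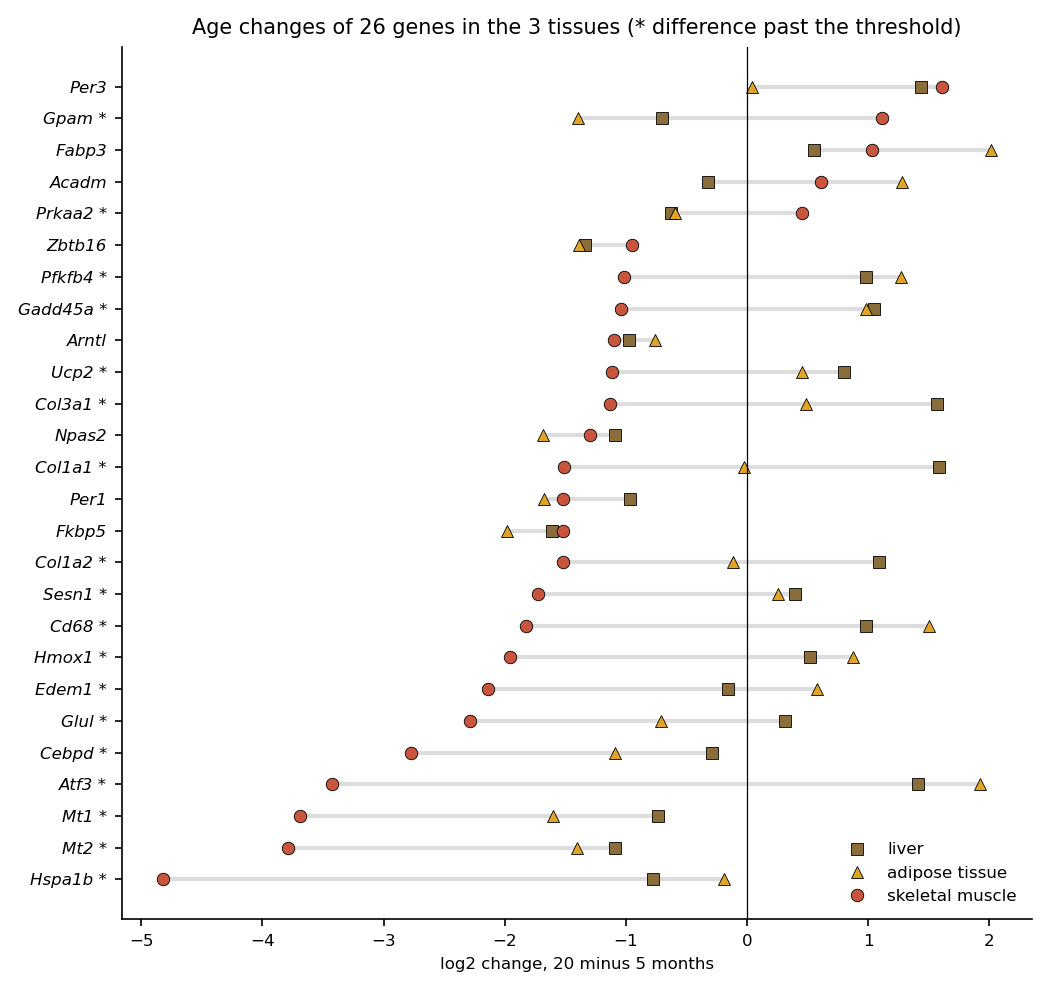
Log2 change between 20 and 5 months of 26 genes in muscle, liver and adipose tissue of *Mlx*KO mice, on the log2(scaled CPM + 1) scale, with 1 point per tissue and gene. An asterisk marks genes whose change in muscle differed from the mean of the other tissues at an adjusted p under 0.05 (18 of 26). *Atf3* and *Cd68* lie below 0 in muscle and above 0 in the other tissues, and *Fkbp5*, *Per1* and *Npas2* lie below 0 in all.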

How the data were processed

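Poly(A) RNA of 9 muscle samples was sequenced from strand-specific libraries, and per gene reads were counted by the authors with CLC Genomics Workbench. They deposited a table headed CPM whose values are a scaled signal, CPM divided by a factor for each sample. The factor is not given in the sources used here. The builds in the submitters' processing notes are GRCm38.p6 and mm10, and coordinates are those of GRCm38.p6 in RefSeq, matched by gene ID. Reads were recovered from the step of 1 read, with 100% of values whole (tolerance 0.1 of a read). Muscle samples held 14384695 to 17961438 reads on genes, and 0 columns of per-sample values were left unused. Among 16 pairs of muscle samples of the same age, 0 were identical and their chi-square divided by its degrees of freedom lay between 9.81 and 97.6, so each was counted once. Whether the mice shared litters or cages is not given, and p-values measure the spread between these mice.

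The design had assumed CPM, and its tests were kept. Tests ran on log2(value + 1) in limma 3.58.1 (R 4.3.3, trended variance) for genes that reached 1 in 4 or more of the 9 samples. Adjusted p-values follow Benjamini and Hochberg, and the threshold was 0.05. The age change in muscle was compared with the mean of liver and adipose tissue by a contrast in a fit of all 27 samples, once with and once without a block for the mouse, since each mouse at 5 months gave all 3 tissues. The correlation within mice was 0.101. Alternatives were other pseudocounts, filters, scalings and weights, the recovered reads tested by DESeq2 1.42.0 and by edgeR 4.0.16, 1 fit of all 27 samples, and each mouse left out. A correction for transcript length and GC content (loess, span 0.3), available for 93.2% of tested genes, was added after seeing the data. On simulated reads with known changes in 12427 tested genes, limma recovered 75 of 97 genes with an absolute log2 change of 1 and 94 of 95 with one of 2, with 11 false calls. The simulated reads were drawn independently for each gene, with no mouse that moved many genes together. These counts therefore do not give the reliability of calls in the real samples, where single mice did so.

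Gene lists and members were chosen with earlier results of these data known. Named genes are *Mlx*, the 12 largest increases and 12 largest decreases with a mean of at least 3 and no overlap of the ages, and the list members with the smallest p, with genes of interest that did not pass. Predicted genes were left out of the description. Upstream sequences are those of RefSeq, trimmed to 250 bases. WT samples were not analysed here, and some members of the lists are not reported by name.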

Additional observations from a re-analysis of the deposited data

Results flagged for a closer look

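Single mice stood apart for 42 of 388 groups of values examined, by the gap to the nearest mouse as a share of the range. No chance rate is given, because the values were not put on a log scale and genes may move together. In 22 of the 42 groups mouse X18S56 was far above the other old mice. These were the chaperones *Hspa1b* (47 scaled CPM), *Hspa1a* (58), *Hspb1* (911), *Hspb7* (2112), *Hspb8* (848), *Hspa8* (1811), *Hsp90aa1* (123) and *Bag3* (308), and the Z-disc and costamere genes *Flnc* (7110.0), *Klhl40* (633), *Xirp1* (2204), *Cryab* (1515), *Ankrd1* (476) and *Vcl* (198). They also included the regulators *Myf6* (181), *Myog* (6.78), *Musk* (50.3), *Sesn1* (97.9), *Atf3* (242) and *Ppp1r15a* (143), the peroxiredoxin repair gene *Srxn1* (207) and the macrophage marker *Cd68* (8.48).

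Mouse X5S5001 was far above the other young mice for 12 genes. The high values were those of *Dnajb1* (692 scaled CPM), *Prg4* (337), *Sik1* (155), *Runx1* (46.4), *Hk1* (24.7), *Pfkfb4* (279), *Ampd3* (440.0), *Ppp1r15a* (429), *Btg2* (695), *Maff* (74.9), *Egr1* (860.0) and *C1qc* (21.4). Mouse X5S4299 stood apart for the slow fiber genes *Myh7* (1171) and *Atp2a2* (871). Mouse X18S57 was the highest old mouse for *Tln2* (107) and *Cnp* (12.3), and mouse X5S5238 the highest young mouse for *Chrne* (14.5). Albumin (*Alb*) was highest in mouse X5S5238 among the young (222) and in mouse X18S58 among the old (43.1). Mouse X5S5239 was the lowest young mouse for *Il15* (3.97).

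In 18 genes the age change in muscle differed from the mean change of liver and adipose tissue, by the test of that difference. The genes compared had been picked from those past the threshold in muscle. Muscle fell relative to the other tissues for the chaperone *Hspa1b* (difference in log2 change -4.34), the metallothioneins *Mt2* (-2.54) and *Mt1* (-2.52), the stress regulators *Atf3* (-5.09), *Cebpd* (-2.09), *Gadd45a* (-2.06), *Sesn1* (-2.05), *Edem1* (-2.35) and *Hmox1* (-2.65), and the metabolic genes *Pfkfb4* (-2.14), *Ucp2* (-1.74) and *Glul* (-2.09). The same direction was seen for the collagens *Col1a1* (-2.29), *Col3a1* (-2.16) and *Col1a2* (-2.01) and for *Cd68* (-3.06). Muscle rose relative to the other tissues for *Gpam* (2.16) and *Prkaa2* (1.06).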

How the results depend on the processing

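With all 9 mice, 2451 genes passed the threshold in muscle. The count was 1507 of 22100 genes without a filter on low values and ran from 1158 to 3796 when 1 mouse was left out (1552 without mouse X18S57, 1352 without mouse X18S58, 1158 without mouse X18S60, 1518 without mouse X5S5001 and 3796 without mouse X5S5238). The other alternatives gave between 2160 and 3217. The split depended on scaling. Leaving out the 20 most abundant genes made 63.7% of calls increases, against 47.4% as deposited, and moved the median log2 change of all genes to 0.087.

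The comparison of muscle with the other tissues gave 2620 genes, 1701 to 2535 with 1 muscle mouse left out and 1701 without mouse X5S5001. With the mouse as a replicate block it gave 2902, among them all 2620, and the block changed the call of 0 of the 26 genes compared. The pairing comes from the mouse numbers of the young mice.

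Of 181 named genes past the threshold, 128 kept their call without any 1 mouse and 108 under every other alternative that tested them, and 0 changed direction. *Myh1* turned positive under quantile normalization (0.049), scaling without the 20 most abundant genes (0.059), sample weights (0.068) and length and GC correction (0.11), and ranged from -0.099 to 0.068 with 1 mouse left out. *Myh2* did so under the same 4 (0.16, 0.072, 0.21 and 0.13) and ranged from -0.32 to 0.19 with 1 mouse left out, and *Nr3c1* turned positive under quantile normalization (0.0071) and scaling without the 20 most abundant genes (0.022). None of the 3 passed the threshold as deposited, and the cause was not tested. Over all named genes, 3826 of 4261 values from alternatives kept direction and call, 411 lost the call, 6 gained it and 18 turned direction. Depth limits genes with low values, since 3 reads are 0.196 to 0.242 scaled CPM.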
